A study of Mus musculus with 12 samples.

Results

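Replication-dependent histone genes were followed through mouse small intestinal organoids that were driven towards M cells, the epithelial cells that sample the gut lumen. The members were all symbols of the count tables that begin with Hist1h, Hist2h, Hist3h or Hist4h, without those marked as pseudogenes by a -ps ending, which gave 69 of 55335 symbols. They comprise 6 H1, 20 H2A, 18 H2B, 12 H3 and 13 H4 genes, of which 56 lie on chromosome 13, 10 on chromosome 3, 2 on chromosome 11 and 1 on chromosome 6 (GRCm38, GENCODE M21 annotation). In that annotation 64 have a single exon, 67 are protein coding and 2, Hist1h2aj and Hist1h2al, have a pseudogene biotype.

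Core histones H2A, H2B, H3 and H4 form the protein spool of the nucleosome, and H1 binds the linker DNA between nucleosomes. Their clustered genes are transcribed mainly while DNA is being copied, under the coactivator NPAT, and most of their mRNAs end in a conserved stem-loop in place of a poly(A) tail. The stem-loop binding protein SLBP holds that end, directs its cleavage together with the U7 snRNP, and the mRNA is degraded when DNA synthesis stops. In the intestine, dividing crypt cells use these genes, while differentiated cells rely more on variant genes outside the clusters, which make polyadenylated mRNA.

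The study holds 12 bulk RNA-seq libraries in 4 groups of 3. All organoids came from 1 line of a female Lgr5GFPDTR/+ mouse, labelled line26 wild type, and replicates are separate differentiation experiments with that line, not separate animals. The p-values therefore measure the spread between experiments with 1 line. RANKL organoids had 3 days with CHIR99021 at 3 µM, which activates Wnt signalling by inhibiting GSK3, together with valproic acid at 1.5 mM, which blocks histone deacetylases. They were then kept 1 day in plain ENR medium and 6 days with RANKL at 100 ng/mL, a cytokine known to induce M cells. ENR control organoids were kept 6 days in ENR medium, which contains EGF, Noggin and R-spondin. Their sample names begin with CVENR, a prefix the labels do not spell out, so whether they also had CHIR99021 and valproic acid is not known here. RANKL+CSRM617 organoids had the RANKL course plus CSRM617 at 40 µM, a small molecule known to inhibit ONECUT2, a transcription factor. RANKL II organoids had the RANKL course and are the set tabulated with the CSRM617 libraries. Libraries were made after ribosomal RNA depletion, a method that does not select for poly(A) tails.

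Library totals were 6351155 to 7719157 counts for RANKL, 5795541 to 7577492 for ENR control, 10225102 to 14041947 for RANKL+CSRM617 and 8669153 to 11241811 for RANKL II. The ribosomal RNA loci Gm26917 and Gm42418 took 9.71 to 10.7% of counts in RANKL, 21.9 to 35.5% in ENR control, 15.3 to 15.8% in RANKL+CSRM617 and 6.44 to 6.71% in RANKL II libraries. All 6 M cell markers rose with RANKL, with a summed level of 689.2 to 717.7 CPM (counts scaled to library size) in RANKL and 13.6 to 19.6 CPM in ENR control libraries. Immune markers summed to 0.229 to 3.36 CPM and stromal and endothelial markers to 6.66 to 15.3 CPM over the 12 libraries, with Adgre1, Cd4, Cd8a, Cdh5, Col1a2 and Col3a1 at 0 counts in all of them. The 6 general epithelial markers had counts in every group. Fold changes also followed GC content across all genes. The Spearman correlation of log2 fold change with transcript GC was -0.316 over 13382 genes in RANKL against ENR control and 0.586 over 13963 genes in RANKL+CSRM617 against RANKL II, a description over genes that share libraries. Since the members' coding sequences have a median GC of 65.1%, the counts of members below are also given from fits in which this trend was removed.

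The 3′ ends of the transcripts show the element that defines these mRNAs. A stem-loop of 16 bases was searched in the annotated transcripts as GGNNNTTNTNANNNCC with 6 base pairs (G-T pairs allowed), and it was found in 46 of 69 members. Representative stem-loops are shown to let the classes be compared, read 5′ to 3′ with the stem-loop in capitals (GENCODE M21 transcripts, GRCm38).
Hist1h1e, chr13:23621777-23621802, minus strand: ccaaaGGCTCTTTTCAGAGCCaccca
Hist1h2bb, chr13:23747198-23747223, plus strand: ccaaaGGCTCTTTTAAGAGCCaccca
Hist1h3g, chr13:23535884-23535909, plus strand: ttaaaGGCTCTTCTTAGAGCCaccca
Hist2h2ac, chr3:96220413-96220438, minus strand: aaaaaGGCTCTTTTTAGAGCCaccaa
Hist1h4d, chr13:23581945-23581970, plus strand: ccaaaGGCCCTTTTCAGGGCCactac
Hist1h4j, chr13:21735432-21735457, plus strand: ctaaaGGTCCTTTTCAGGACCaccac
Hist2h4, chr3:96262934-96262959, minus strand: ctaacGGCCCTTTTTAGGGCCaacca
Hist4h4, chr6:136803993-136804018, minus strand: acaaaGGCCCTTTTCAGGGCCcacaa
The form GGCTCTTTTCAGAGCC stood in 26 of the 46, of the H1, H2A, H2B and H3 classes. The 12 H4 members with a match carried other stems, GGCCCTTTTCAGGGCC in 7, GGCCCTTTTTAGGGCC in 2, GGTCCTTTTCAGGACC in 2 and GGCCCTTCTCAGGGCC in 1. Where no match was found, only that these letters are not in the annotated transcript is known, since several annotated ends stop at the coding sequence.

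Promoter windows of 250 bases before to 50 after the start (RefSeq, GRCm38.p6) matched 61 of 69 members through symbol synonyms. On either strand, TATAAA was present in 35 of the 61 (57.4%) and in 13.6% of 32851 promoters, and CCAAT in 52 of the 61 (85.2%) and in 37.4% of all. A CCAAT match and a TATAAA match can share a letter where they meet. A pair of windows is printed, that of Hist1h2an, the member that rose most with CSRM617, and that of Hist4h4, the H4 gene that fell most, with TATAAA and CCAAT (or ATTGG, its other strand) in capitals.
Hist1h2an, chr13:21787199-21787498, minus strand: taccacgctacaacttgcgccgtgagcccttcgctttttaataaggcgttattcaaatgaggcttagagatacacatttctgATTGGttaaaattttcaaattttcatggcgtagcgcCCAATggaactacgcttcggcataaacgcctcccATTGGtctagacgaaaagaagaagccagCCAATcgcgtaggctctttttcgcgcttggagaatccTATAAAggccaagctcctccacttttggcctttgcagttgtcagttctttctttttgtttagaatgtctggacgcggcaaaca
Hist4h4, chr6:136804382-136804681, minus strand: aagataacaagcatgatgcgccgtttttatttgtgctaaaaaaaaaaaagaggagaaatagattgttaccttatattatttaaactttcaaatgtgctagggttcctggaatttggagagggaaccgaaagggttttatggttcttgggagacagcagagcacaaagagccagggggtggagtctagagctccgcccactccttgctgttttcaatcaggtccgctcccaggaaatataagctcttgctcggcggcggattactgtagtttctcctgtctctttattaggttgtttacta
The window of Hist1h2an held TATAAA and 4 CCAAT matches, and that of Hist4h4 held neither. By edgeR with CSRM617 and no GC term, 22 of 31 tested members with TATAAA rose and 1 fell (median log2 fold change 0.51). Of 19 without TATAAA, 15 rose and 3 fell (median 0.66), where 35.2% of all genes rose and 36.2% fell. Only H4 genes lacked a CCAAT match. Whether either motif went with the changes was not tested.

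Near-identical coding sequences limit how far single members can be told apart. The median member had 40.9% of its 42-base stretches, the length of 1 read, unique among annotated transcripts (range 0 to 100%), and 41 of 69 had under 50%. All 13 H4 genes encode 1 protein and the 12 H3 genes encode 3. The sources used here do not say how reads that match several genes were counted, so values of single members with low uniqueness are uncertain, and class sums are given first. Of the 69 members, 26 overlap another annotated gene, all 20 H2A genes among them, mostly on the opposite strand, and the strand setting of the counting is not given either. Hist1h1e shares exonic sequence with Hist1h2be, Hist3h2a with Trim17, and Hist2h3b and Hist2h2bb with Gm20628. Sequence shared with such overlapping genes also lowers the uniqueness values, as for Hist2h3b and Hist2h2bb, each with 0% unique and Gm20628 on the opposite strand.

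Counts reached the level needed for a test in 55 members in both comparisons. The other 14 were Hist1h1t, Hist1h2aa, Hist1h2aj, Hist1h2al, Hist1h2ao, Hist1h2ap, Hist1h2ba, Hist1h2bq, Hist1h2br, Hist2h2aa1, Hist2h2aa2, Hist2h3c1, Hist2h3c2 and Hist3h2ba. Hist1h2aa, Hist1h2ap, Hist1h2br, Hist2h2aa1 and Hist2h3c1 had 0 counts in every library. Unique sequence makes up 6.8% of Hist1h2ap, 10.94% of Hist1h2br and 0% of Hist2h2aa1 and Hist2h3c1, against 73.93% of Hist1h2aa. It is also scarce in the untested Hist1h2ao (6.38%), Hist1h2bq (2.28%) and Hist2h2aa2 (0%). Since the handling of reads that match several genes is not given, low or 0 counts of such members do not show absent mRNA. The highest total of an untested member over the 12 libraries was 62 counts, for Hist3h2ba, an H2B gene. Hist1h1t, the testis H1 gene, had 34 counts in all and Hist1h2ba, a testis H2B gene, had 1.

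RANKL organoids held less mRNA of every histone class than ENR control organoids. All members together summed to 2400, 2151 and 1860 CPM in the RANKL libraries and to 3873, 3807 and 3977 CPM in the ENR control libraries, a mean of 2137 ± 270 against 3886 ± 85.5 CPM (SD, n = 3 each). The log2 ratio of the means was -0.86, and no library of one group reached the other. In bulk RNA, fewer cells in S phase and less histone mRNA per cell cannot be told apart. By class the summed level was 795 ± 78.4 CPM in RANKL and 1409 ± 137 CPM in ENR control for H1, and 197 ± 35.6 against 394.1 ± 12.9 CPM for H2A. For H2B it was 343.6 ± 51.7 CPM in RANKL and 554.1 ± 13.9 CPM in ENR control, for H3 217.2 ± 29.6 against 483.9 ± 6.86 CPM, and for H4 584.2 ± 82.4 against 1045 ± 57.6 CPM (SD, n = 3). H3 was lowest relative to its control level, with a log2 ratio of -1.16, followed by H2A at -1.0, H4 at -0.84, H1 at -0.83 and H2B at -0.69; whether the classes differed from each other was not tested. H1 genes made up 37.3 ± 1.9% of member CPM in RANKL and 36.2 ± 2.8% in ENR control libraries.

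**Figure D1:**
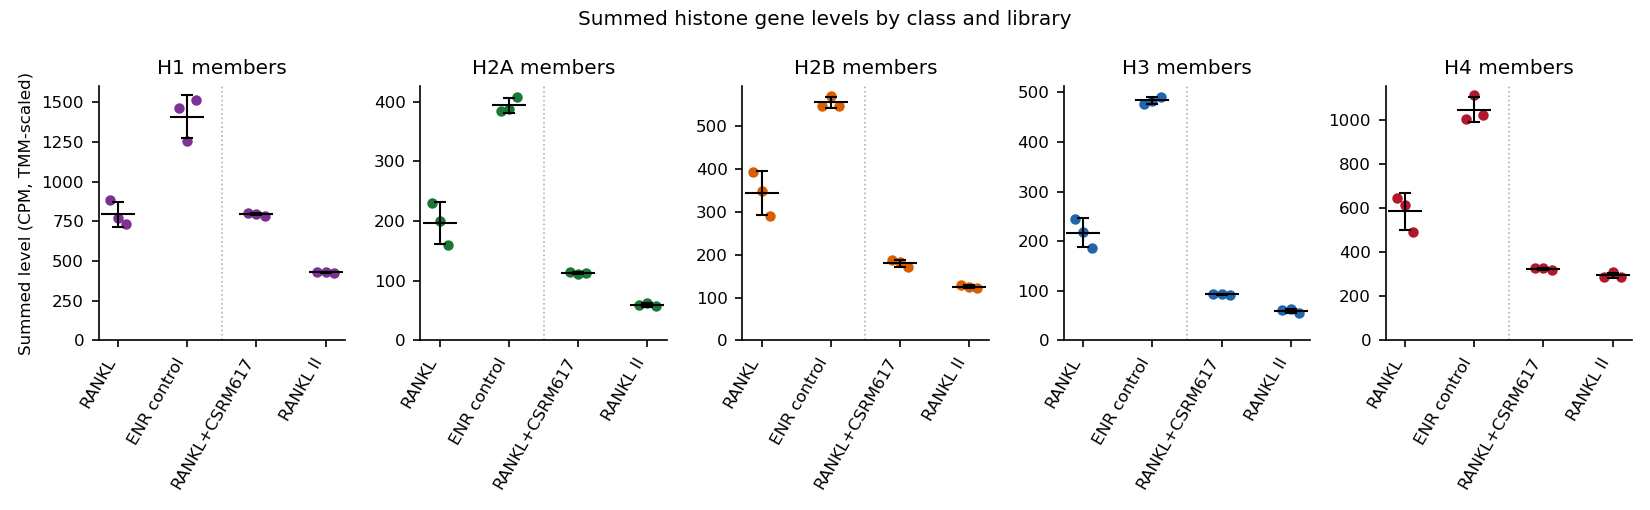
Summed CPM of the members of each histone class in every library (points, 3 per group), with mean and SD bars; RANKL and ENR control come from one count table and RANKL+CSRM617 and RANKL II from another (dotted line). Every class is lower in all RANKL than in all ENR control libraries, while in the second table H1 shows a wide gap and H4 a narrow one.

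Gene by gene, 51 of 55 tested members fell with RANKL (edgeR quasi-likelihood test, Benjamini-Hochberg adjusted p under 0.05 over all genes), where 28.0% of all 13570 tested genes fell. No member rose by edgeR, none had an unadjusted p under 0.05 in that direction (0 of 55), and DESeq2 and limma also called 0 higher, where 28.7% of all genes rose by edgeR. The median log2 fold change was -0.88 over the members and 0.00 over all genes. In 51 of 55 members the 3 RANKL libraries lay apart from the 3 ENR control libraries, all of them lower. The share of all genes whose libraries lay apart in this way was not computed, so this count has no background. The falls covered 5 of 5 H1, 12 of 13 H2A, 11 of 14 H2B, 10 of 10 H3 and 13 of 13 H4 genes.

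With offsets that removed the trend on transcript GC, 39 of 55 members fell and 16 were not called (median -0.47), where 27.0% of all genes fell. For members with long annotated 3′ ends the transcript GC lies well below that of the coding sequence, so the offsets were also computed with the members' coding GC, while all other genes kept their transcript GC. Then 18 of 55 fell (median -0.26), where 26.8% of all genes fell. Those 18 fell under all 3 treatments of GC. They were Hist1h1a, Hist1h1c, Hist1h1d, Hist1h1e, Hist1h2af, Hist1h2bb, Hist1h2bg, Hist1h2bk, Hist1h2bn, Hist2h2bb, Hist1h3a, Hist1h3c, Hist1h3e, Hist1h3h, Hist1h3i, Hist1h4c, Hist1h4f and Hist1h4h. Among all genes with a transcript GC of 55 to 65%, 2720 in number, the median log2 fold change before any offset was -0.25. Within the 55 members, the log2 fold change correlated with coding GC at a Spearman rho of -0.61, a description over genes of the same libraries.

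**Figure D2:**
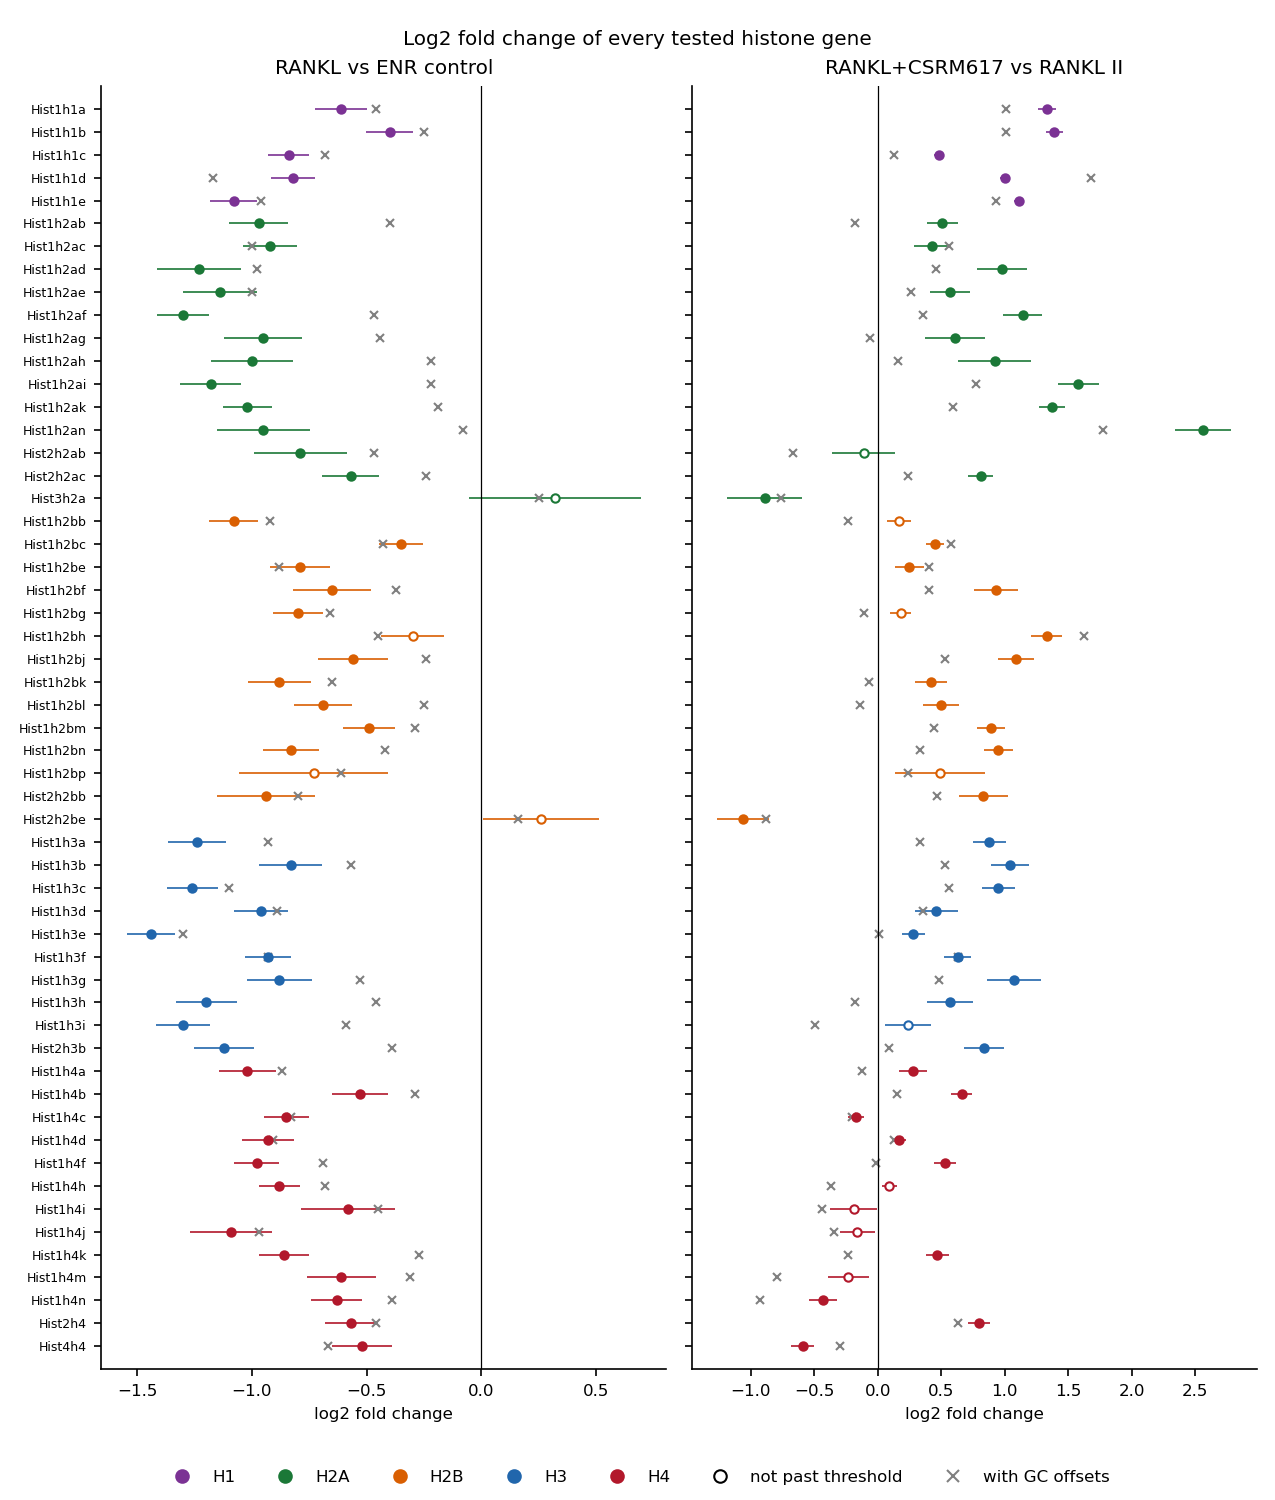
Log2 fold change of each of the 55 tested members, grouped by class, in RANKL against ENR control (left) and RANKL+CSRM617 against RANKL II (right); circles with SE bars are the edgeR values, open where the adjusted p was 0.05 or more, and grey crosses the values with transcript GC offsets. On the left 51 members are filled and below 0; on the right 41 are filled above 0 and 5 below.

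Linker histone genes fell together. Hist1h1e, a widely expressed linker histone, had 173.7, 145.8 and 147.2 CPM in RANKL and 339.6, 280.8 and 369.9 CPM in ENR control libraries (log2 fold change -1.08 ± 0.104 SE, edgeR adjusted p = 3.51e-07). Hist1h1d had 281.4, 236.0 and 242.5 CPM in RANKL and 467.7, 391.0 and 486.7 CPM in ENR control libraries (-0.82 ± 0.0971, adjusted p = 3.25e-06). Hist1h1c had 258.3, 245.7 and 219.9 CPM in RANKL and 448.1, 386.2 and 459.1 CPM in ENR control libraries (-0.84 ± 0.0901, adjusted p = 1.22e-06). In each of these the highest RANKL library stayed below the lowest control library, and ENR control replicate 2 was the lowest control. Hist1h1b fell least in the class, with 127.8, 104.2 and 92.9 CPM in RANKL and 147.6, 141.7 and 140.1 CPM in ENR control libraries (-0.40 ± 0.103, adjusted p = 0.00372). It was not called with coding GC offsets (-0.22).

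The steepest single falls were those of H3 and H2A genes. Hist1h3e had 45.3, 43.3 and 33.5 CPM in RANKL and 107.7, 114.7 and 108.5 CPM in ENR control libraries (log2 fold change -1.44 ± 0.105, edgeR adjusted p = 1.46e-08), and -0.71 with coding GC offsets, still past the threshold. Hist1h3c fell by 1.26 and Hist1h3a by 1.24 on the log2 scale. Hist1h2af had 21.44, 18.8 and 17.1 CPM in RANKL and 49.5, 46.2 and 45.5 CPM in ENR control libraries (-1.30 ± 0.112, adjusted p = 9.49e-08). It has only 5.87% unique 42-base stretches. Hist1h2ak, with 43.1, 39.1 and 31.4 CPM in RANKL and 77.6, 74.4 and 80.4 CPM in ENR control libraries, changed by -1.02 ± 0.108 (adjusted p = 9.92e-07), and by -0.19 with either GC offset, no longer called. Among H2A genes 6 of 13 were called lower with transcript GC offsets, where 27.0% of all genes fell. With coding GC offsets 1 of 13, Hist1h2af, was called lower, where 26.8% of all genes fell. This class has the highest coding GC, with a median of 68.8%.

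H2B genes differed among themselves. Hist1h2bb had 53.5, 44.4 and 38.3 CPM in RANKL and 94.3, 98.5 and 96.2 CPM in ENR control libraries (-1.08 ± 0.107, edgeR adjusted p = 4.83e-07), and -0.80 with coding GC offsets. Hist1h2bc, whose annotated transcript is spliced and extends past the usual histone end, had 56.9, 49.2 and 47.9 CPM in RANKL and 66.8, 68.4 and 60.6 CPM in ENR control libraries (-0.35 ± 0.0963, adjusted p = 0.00586). The fall of Hist1h2bc was the smallest of the 51. The 3 H2B genes that did not pass were Hist1h2bh at -0.30, Hist1h2bp at -0.73 and Hist2h2be at 0.26. Hist1h2bh passed with the experiment number as a block.

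Without GC offsets all 13 H4 genes fell, with log2 fold changes between -0.52 for Hist4h4 and -1.09 for Hist1h4j. Among all genes 28.0% fell. Hist1h4d had 125.8, 129.5 and 90.7 CPM in RANKL and 213.5, 232.6 and 215.9 CPM in ENR control libraries (-0.93 ± 0.112, edgeR adjusted p = 3.9e-06). Hist1h4j had 27.6, 24.6 and 15.2 CPM in RANKL and 44.0, 56.2 and 42.7 CPM in ENR control libraries (-1.09 ± 0.179, adjusted p = 0.000173). Neither was called with coding GC offsets. Under that treatment 3 of 13 H4 genes were called lower, Hist1h4c, Hist1h4f and Hist1h4h, where 26.8% of all genes fell. RANKL replicate 3 was the lowest RANKL library for all 13 H4 genes, with a class sum of 490.9 CPM beside 646.7 and 615.0 CPM in the other RANKL libraries.

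The members that stood apart from the fall were Hist2h2be and Hist3h2a. Hist2h2be on chromosome 3, an H2B gene with a transcript of 2620 bases that extends past the coding sequence, had 6.62, 8.25 and 5.82 CPM in RANKL and 3.84, 8.13 and 4.57 CPM in ENR control libraries (0.26 ± 0.253, edgeR adjusted p = 0.399). The groups overlapped at ENR control replicate 2, and without that library the value was 0.72 and past the threshold. Hist3h2a on chromosome 11 had 2.81, 2.37 and 1.35 CPM in RANKL and 2.69, 1.20 and 1.60 CPM in ENR control libraries (0.32 ± 0.375, adjusted p = 0.476), and it overlaps Trim17 on the same strand.

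Adding CSRM617 to RANKL went with more H1, H2A, H2B and H3 mRNA and with little change in summed H4 mRNA, before any GC term; with coding GC offsets the class medians of H2B and H3 were below 0 as well. All members summed to 1526, 1512 and 1481 CPM in RANKL+CSRM617 and to 965.1, 994.4 and 944.8 CPM in RANKL II libraries, a mean of 1506 ± 22.9 against 968.1 ± 24.9 CPM (SD, n = 3 each; log2 ratio 0.64). H1 genes summed to 795.4 ± 8.77 CPM in RANKL+CSRM617 and 428 ± 5.66 CPM in RANKL II, H2A genes to 112.6 ± 1.36 against 59.5 ± 2.58 CPM, H2B genes to 179.9 ± 8.02 against 125.7 ± 2.42 CPM and H3 genes to 93.0 ± 0.618 against 60.3 ± 4.02 CPM. H4 genes summed to 325.3 ± 5.04 CPM in RANKL+CSRM617 and 294.6 ± 12.7 CPM in RANKL II, a log2 ratio of 0.14. H1 genes took 52.6, 52.8 and 53.0% of member CPM in RANKL+CSRM617 and 44.4, 43.6 and 44.7% in RANKL II libraries, so the groups did not overlap in this share.

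By edgeR, 41 of 55 members rose (35.2% of all 14167 tested genes rose) and 5 fell (36.2% of all genes fell), with a median log2 fold change of 0.57 over the members and -0.02 over all genes. The 2 groups of libraries lay apart for 47 of 55 members, 42 higher and 5 lower. Here too the share of all genes with groups apart was not computed. Higher members were 5 of 5 H1, 11 of 13 H2A, 10 of 14 H2B, 9 of 10 H3 and 6 of 13 H4 genes. Lower members were Hist3h2a, Hist2h2be, Hist4h4, Hist1h4n and Hist1h4c. DESeq2 called neither Hist3h2a nor Hist1h4c.

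The treatment of GC changed the number and the balance of these calls. With transcript GC offsets 27 of 55 rose and 13 fell (median 0.24; 30.0% of all genes rose and 33.6% fell). With coding GC offsets 13 rose and 22 fell (median -0.14; 29.9% of all genes rose and 33.6% fell). All genes with a transcript GC of 55 to 65%, 2813 in number, had a median log2 fold change of 0.46 without offsets, against 0.57 for the members. The 13 genes that rose under all 3 treatments were Hist1h1a, Hist1h1b, Hist1h1d, Hist1h1e, Hist1h2af, Hist1h2ai, Hist1h2ak, Hist1h2an, Hist1h2bh, Hist1h2bj, Hist1h2bm, Hist1h2bn and Hist2h2bb. The 5 that fell without offsets also fell under the other 2 treatments. The part of GC in the rise of the members was not tested further. H1 had the highest median and H4 the lowest under each treatment, 1.11 and 0.09 without offsets, 1.01 and -0.23 with transcript GC offsets and 0.53 and -0.61 with coding GC offsets. The median coding GC of H1 genes is 59.4% and that of H4 genes 65.1%.

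**Figure D3:**
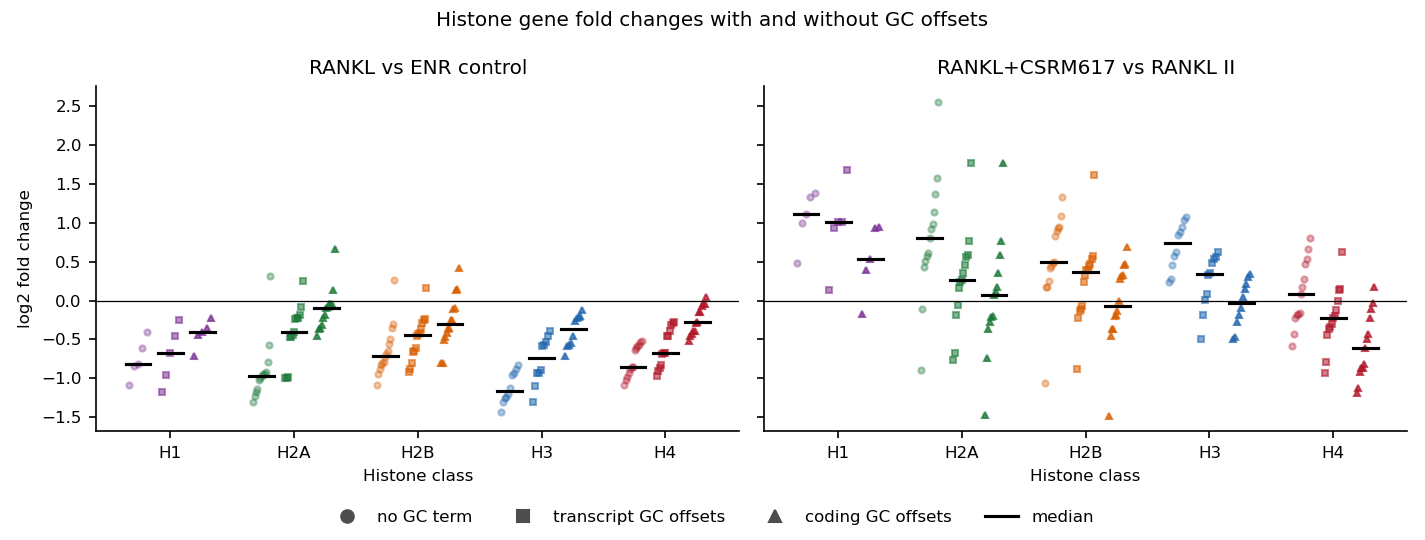
Log2 fold changes of the tested members by class in both comparisons, without a GC term (circles), with transcript GC offsets (squares) and with coding GC offsets (triangles); black bars are medians. With RANKL the class medians stay below 0 under each treatment, and with CSRM617 the H1 median stays above 0 while the H4 median passes to -0.61.

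H1 genes carried the clearest rise with CSRM617. Hist1h1b had 63.0, 56.4 and 59.9 CPM in RANKL+CSRM617 and 20.3, 24.7 and 23.2 CPM in RANKL II libraries (log2 fold change 1.39 ± 0.0681, edgeR adjusted p = 3.71e-22), and 0.95 with coding GC offsets. Hist1h1a had 54.9, 52.5 and 53.3 CPM in RANKL+CSRM617 and 22.1, 23.7 and 18.5 CPM in RANKL II libraries (1.33 ± 0.071). Hist1h1e had 236.4, 235.2 and 220.4 CPM in RANKL+CSRM617 and 109.6, 108.7 and 102.7 CPM in RANKL II libraries (1.11 ± 0.0377, adjusted p = 5.29e-28). In each of these the lowest RANKL+CSRM617 library lay above the highest RANKL II library. Hist1h1c rose least, with 230.9, 237.9 and 238.2 CPM in RANKL+CSRM617 and 169.7, 170.9 and 168.3 CPM in RANKL II libraries (0.48 ± 0.0329). With coding GC offsets Hist1h1c was called lower, at -0.17.

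Among the core histone genes the largest rise was that of Hist1h2an, with 5.84, 6.11 and 7.50 CPM in RANKL+CSRM617 and 1.24, 0.927 and 1.12 CPM in RANKL II libraries (2.56 ± 0.223, edgeR adjusted p = 6.65e-14, and 1.77 with either GC offset). Only 13.9% of its 42-base stretches are unique. Hist1h2ai had 8.98, 9.28 and 9.92 CPM in RANKL+CSRM617 and 2.38, 3.4 and 3.52 CPM in RANKL II libraries (1.58 ± 0.158, adjusted p = 4.24e-12). Hist1h2bh had 14.9, 13.5 and 13.6 CPM in RANKL+CSRM617 and 5.18, 5.36 and 6.01 CPM in RANKL II libraries (1.33 ± 0.124, adjusted p = 5.82e-13). These genes stayed above the threshold with both GC offsets, at 0.77 for Hist1h2ai and 0.69 for Hist1h2bh with coding GC. Among H3 genes Hist1h3g changed most, with 4.11, 5.21 and 5.32 CPM in RANKL+CSRM617 and 1.97, 3.50 and 1.76 CPM in RANKL II libraries (1.07 ± 0.212, adjusted p = 2.06e-05). It was not called with coding GC offsets (0.34), and under that treatment 2 H3 genes, Hist1h3e and Hist1h3i, were called lower.

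H4 genes split. Hist2h4 on chromosome 3 had 24.5, 26.5 and 26.5 CPM in RANKL+CSRM617 and 13.8, 16.5 and 14.5 CPM in RANKL II libraries (0.80 ± 0.0867, edgeR adjusted p = 4.89e-11), and 0.63 with transcript GC offsets but 0.18 and no call with coding GC. Hist1h4d was nearly level, with 68.1, 70.9 and 63.7 CPM in RANKL+CSRM617 and 61.2, 60.4 and 58.8 CPM in RANKL II libraries (0.17 ± 0.0527, adjusted p = 0.0042). Hist4h4 on chromosome 6 had 14.06, 15.6 and 14.4 CPM in RANKL+CSRM617 and 19.8, 24.6 and 22.2 CPM in RANKL II libraries (-0.59 ± 0.092, adjusted p = 2.61e-07). Their proteins are identical, and their stem-loops shown above differ from each other in the loop or not at all. Transcript GC offsets left 2 of 13 H4 genes higher and 8 lower, where 30.0% of all genes rose and 33.6% fell. With coding GC offsets 0 of 13 were higher and 10 lower (median -0.61), where 29.9% of all genes rose and 33.6% fell. Hist1h4d was then called lower, at -0.49.

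Of the 5 members that fell, Hist2h2be, Hist3h2a, Hist4h4 and Hist1h4c have long annotated 3′ ends and Hist1h4n a short one. Hist2h2be had 2.49, 2.44 and 1.86 CPM in RANKL+CSRM617 and 4.14, 4.64 and 5.13 CPM in RANKL II libraries (-1.06 ± 0.201, edgeR adjusted p = 1.02e-05). Hist3h2a had 1.19, 0.733 and 1.29 CPM in RANKL+CSRM617 and 1.66, 1.96 and 2.24 CPM in RANKL II libraries (-0.89 ± 0.296, adjusted p = 0.00676), and DESeq2 did not call it. Annotated transcripts with more than 200 bases after the stop codon belong to 24 members. Of the 18 of these that were tested 12 rose and 4 fell with CSRM617 (median 0.36), against 29 higher and 1 lower of 37 with short ends (median 0.81). Among all genes 35.2% rose and 36.2% fell. Whether the 2 sets of members differ was not tested. With transcript GC offsets both medians were 0.24. With coding GC they were -0.37 (3 higher and 12 lower) for long and 0.04 (10 higher and 10 lower) for short ends. Under coding GC 29.9% of all genes rose and 33.6% fell. In RANKL against ENR control 15 of the 18 with long ends and 36 of the 37 with short ends fell, where 28.0% of all genes fell. The medians of these 2 sets were -0.83 and -0.88 without offsets. They were -0.85 and -0.46 with transcript GC offsets, with 15 and 24 lower, where 27.0% of all genes fell. With coding GC they were -0.24 and -0.27, with 5 and 13 lower, where 26.8% of all genes fell.

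**Figure D4:**
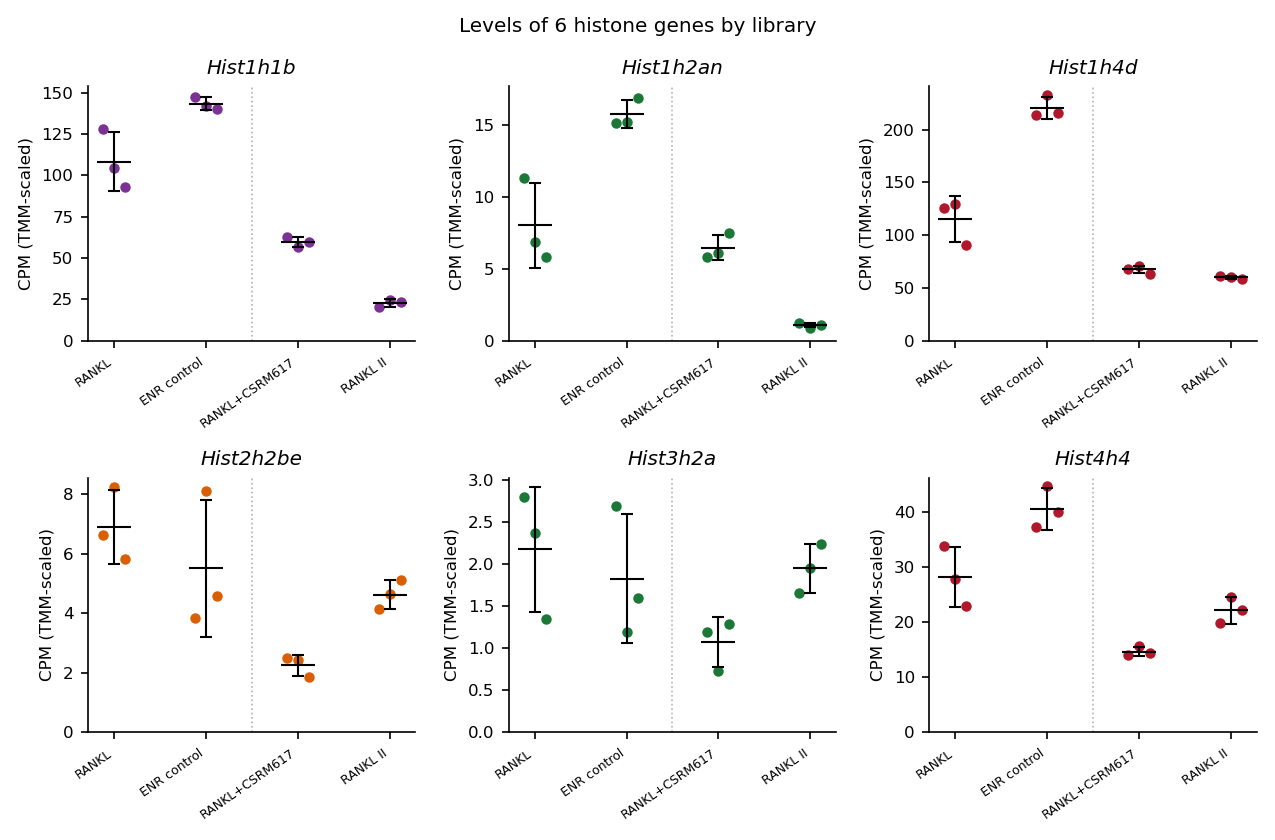
CPM of 6 members in every library (points), with mean and SD bars (n = 3); the dotted line parts the 2 count tables. Hist1h1b and Hist1h2an are lower with RANKL and higher with CSRM617, Hist1h4d is nearly level in the second table, and Hist2h2be, Hist3h2a and Hist4h4 are lower with CSRM617.

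Set side by side, 40 members were lower with RANKL and higher with CSRM617, and 3 were lower in both, Hist4h4, Hist1h4n and Hist1h4c. With transcript GC offsets these counts were 21 and 7, and with coding GC 6 and 7. The share of all genes called in these directions was not computed. Without offsets, fold changes of all genes followed transcript GC in opposite directions in the 2 comparisons (Spearman rho -0.316 and 0.586). The members lower with RANKL and higher with CSRM617 in all 3 treatments of GC were Hist1h1a, Hist1h1d, Hist1h1e, Hist1h2af, Hist1h2bn and Hist2h2bb. Only 5.87% of the 42-base stretches of Hist1h2af, 12.35% of Hist1h2bn and 0% of Hist2h2bb are unique, so single values of these genes are uncertain. For Hist2h2bb the gene that shares most stretches is Gm20628, which overlaps it on the opposite strand. The comparisons share no libraries. Ordered by the smaller of a member's 2 absolute values, without GC offsets, the opposed values were led by Hist1h2ai (-1.18 and 1.58), Hist1h2af (-1.30 and 1.14), Hist1h1e (-1.08 and 1.11) and Hist1h2ak (-1.02 and 1.37). With RANKL neither Hist1h2ai nor Hist1h2ak was called under either GC offset. Hist1h2ad (-1.23 and 0.98), Hist1h2an (-0.95 and 2.56), Hist1h3c (-1.26 and 0.95), Hist1h2ah (-1.0 and 0.92), Hist1h3g (-0.88 and 1.07), Hist1h3a (-1.24 and 0.88), Hist2h3b (-1.12 and 0.84) and Hist1h3b (-0.83 and 1.04) followed. The summed level in RANKL II, 968.1 CPM, was below that in RANKL, 2137 CPM, although both had the same course per the labels; the 2 tables were scaled separately and come from separate sets, so this difference was not tested.

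Of 14 genes of histone transcription and mRNA processing 2 rose and 5 fell with RANKL (median -0.08), where 28.7% of all genes rose and 28.0% fell; with GC offsets 1 rose and 7 fell. Slbp, which encodes the stem-loop binding protein, had 39.5, 32.7 and 34.7 CPM in RANKL and 51.7, 51.6 and 46.8 CPM in ENR control libraries (-0.49 ± 0.102, edgeR adjusted p = 0.000705). Lsm11, a protein of the U7 snRNP, fell by 0.97, and Sympk, the scaffold of the cleavage complex, fell by 0.54. Ncbp1, a subunit of the cap-binding complex, rose (0.69), as did the cleavage factor gene Cstf2 (0.38, not called with GC offsets). Npat, the coactivator of histone transcription, had 46.5, 50.0 and 52.5 CPM in RANKL and 43.8, 49.3 and 45.7 CPM in ENR control libraries and did not pass (0.10 ± 0.095, adjusted p = 0.409), but was called lower with GC offsets (-0.21).

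With CSRM617, 4 of these 14 rose and 4 fell (median 0.02), where 35.2% of all genes rose and 36.2% fell; with GC offsets 7 rose and 2 fell. Slbp had 26.4, 28.6 and 28.0 CPM in RANKL+CSRM617 and 23.9, 22.3 and 22.5 CPM in RANKL II libraries (0.28 ± 0.0751, edgeR adjusted p = 0.00106), and 0.53 with GC offsets. Srrt, also called ARS2, a partner of the cap-binding complex, rose (1.12), as did Sympk (0.91). Npat had 30.4, 30.4 and 32.2 CPM in RANKL+CSRM617 and 43.8, 42.3 and 47.8 CPM in RANKL II libraries (-0.53 ± 0.065, adjusted p = 1.07e-09), but 0.08 and no call with GC offsets. Cstf2, a cleavage factor, fell by 0.29 and was called higher (0.16) with GC offsets. Among all genes, 28.7% rose and 28.0% fell with RANKL, and 35.2% rose and 36.2% fell with CSRM617. Of the 9 genes of histone mRNA decay 7 were tested. With RANKL 2 rose, the exonuclease genes Eri1 (0.35) and Xrn1 (0.31), and 2 fell, Exosc10 (-0.62) and Upf1 (-0.35); with GC offsets only Exosc10 was called. With CSRM617 3 rose, Upf1 (0.73) and Exosc10 (0.50) among them, and 2 fell, Eri1 (-0.64) and Xrn1 (-0.33), though Xrn1 was called higher (0.14) with GC offsets.

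Histone chaperones, which carry histones to and from DNA, mostly fell with RANKL. Of 23, 16 fell and 2 rose (median -0.38), where 28.0% of all genes fell and 28.7% rose. With GC offsets 17 fell and 1 rose, where 27.0% of all genes fell and 27.1% rose. Tonsl, which reads new H4 behind replication forks, fell by 1.27, Chaf1a, the large subunit of the replication-coupled assembly factor CAF-1, by 1.01 and Hjurp, the chaperone of the centromeric H3, by 0.73. Atrx rose (0.51), but was not called with GC offsets (0.15). With CSRM617 14 of 23 rose and 5 fell (median 0.27), where 35.2% of all genes rose and 36.2% fell. With GC offsets 15 rose and 5 fell, where 30.0% of all genes rose and 33.6% fell. Chaf1a had 30.9, 29.5 and 28.1 CPM in RANKL+CSRM617 and 11.8, 12.98 and 13.3 CPM in RANKL II libraries (1.21 ± 0.0862, edgeR adjusted p = 1.5e-16), Tonsl rose (0.96) as did Cabin1 (0.84), and the histone-binding genes Rbbp4 and Rbbp7 both fell by 0.62.

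Of 11 variant histone genes outside the clusters 9 were tested, and with RANKL 2 rose and 2 fell (median -0.01). The shares of all genes were 28.7% higher and 28.0% lower with RANKL, and 35.2% higher and 36.2% lower with CSRM617. H3f3b, which makes the replacement histone H3.3, had 292.6, 291.5 and 263.4 CPM in RANKL and 222.1, 231.5 and 210.2 CPM in ENR control libraries (0.35 ± 0.08, edgeR adjusted p = 0.00148). H3f3a, the other H3.3 gene, rose (0.28) but was not called with GC offsets (0.10), and H2afx, whose mRNA can also end in a stem-loop, fell by 0.74. H2afz did not pass (0.03). With CSRM617 7 of 9 rose and 2 fell (median 0.45): H1f0, the H1 variant of resting cells, rose (0.53) as did H2afx (0.83), H2afj (0.51), H2afz (0.45) and H2afy (0.46), and H3f3a fell by 0.48 but was not called with GC offsets. H3f3b fell by 0.27 but was called higher (0.06) with GC offsets, under which 8 of the 9 and 30.0% of all genes rose.

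Of 26 genes of S phase and DNA replication, 24 fell with RANKL and the other 2 did not pass (median -0.82). With transcript GC offsets 24 of 26 were again lower (median -0.79). Among all genes 28.0% fell and 28.7% rose with RANKL, and 27.0% and 27.1% with these offsets. Mcm5, a subunit of the replicative helicase, had 60.6, 54.8 and 51.9 CPM in RANKL and 137.3, 144.2 and 134.6 CPM in ENR control libraries (-1.31 ± 0.0867, edgeR adjusted p = 4.14e-09). Cdt1, the helicase loader, fell by 1.45, Prim1 of the primase by 1.19, Mcm6 by 1.13 and Pcna, the sliding clamp, by 0.51. Of 12 genes of G2 and mitosis 3 fell (median -0.19), Aurkb (-0.60), Plk1 (-0.52) and Cdk1 (-0.33), while Mki67, a general marker of cycling cells, did not pass the threshold (-0.12, adjusted p = 0.25). With transcript GC offsets 6 of the 12 fell and 0 rose (median -0.26), where 27.0% of all genes fell. Of 5 tested cell cycle inhibitors 3 fell and Cdkn1a, which encodes p21, rose to 121.6, 108.9 and 91.3 CPM in RANKL libraries, against 19.4, 17.1 and 20.3 CPM in ENR control libraries (2.52 ± 0.123).

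With CSRM617 10 of the 26 S phase genes rose and 5 fell (median 0.12), where 35.2% of all genes rose and 36.2% fell. With transcript GC offsets these shares of all genes were 30.0% and 33.6%. E2f2, a transcription factor of S phase entry, rose (1.23), as did Ccne1, the cyclin that activates CDK2 and with it NPAT (1.13), and Mcm5 (0.49). Pcna fell by 0.30 and Mcm6 by 0.15, and neither was called with GC offsets. Cdt1 rose (0.35) but stood at -0.10 and was not called with GC offsets. Of the 12 G2 and mitosis genes 9 rose (median 0.80, and 0.81 with 11 higher under transcript GC offsets). Mki67 had 311.5, 318.7 and 310.6 CPM in RANKL+CSRM617 and 136.5, 143.0 and 143.4 CPM in RANKL II libraries (1.15 ± 0.0331, adjusted p = 1.24e-30, edgeR), and Plk1 rose (1.29) as did Cenpe (1.13). Of the 5 inhibitors, Cdkn1a (0.41) and Cdkn2c (1.04) rose and Cdkn1b (-0.68) and Rbl2 (-0.31) fell. Markers of other epithelial types moved as well. With RANKL 4 of 7 stem and Paneth cell markers fell and 2 rose, where 28.0% of all genes fell and 28.7% rose. Of 5 enterocyte markers 4 rose and 1 fell with RANKL. With CSRM617 all 5 enterocyte markers rose, summing to 8569 ± 169 CPM in RANKL+CSRM617 and 3423 ± 30.7 CPM in RANKL II, and 4 of the 7 stem and Paneth cell markers rose and 2 fell. Their part in the histone values was not tested.

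**Figure D5:**
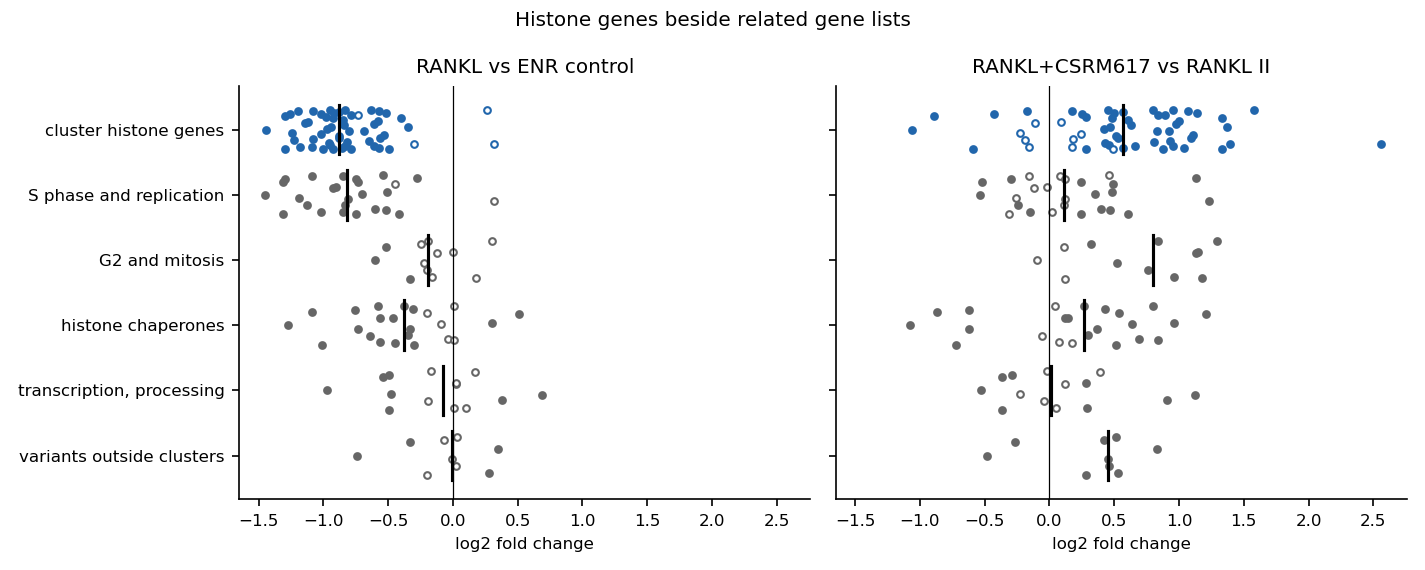
Log2 fold changes of the tested histone genes (blue) and of 5 related gene lists (grey) in both comparisons; filled points passed the edgeR threshold and black bars are medians. Without GC offsets, the medians with RANKL were -0.88 for the histone genes and -0.82 for the S phase genes. With CSRM617 they were 0.57 for the histone, 0.12 for the S phase and 0.80 for the G2 and mitosis genes. Under transcript GC offsets, not drawn, the histone and S phase medians were -0.47 and -0.79 with RANKL. For CSRM617 these offsets gave 0.24 for the histone, 0.07 for the S phase and 0.81 for the G2 and mitosis genes. Coding GC offsets gave histone medians of -0.26 with RANKL and -0.14 with CSRM617.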

How the data were processed

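The authors deposited raw counts per gene symbol in 1 table for each comparison, and normalized tables on a log2 scale of 17442 and 18531 genes. Per the submitters' processing notes, reads of 42 bp pairs were aligned with STAR to mm10 (GRCm38) and counted with HTSeq 0.13.5; the notes list DESeq2 1.34.0 too. Annotation, strand setting and handling of multiply mapped reads: not given in the sources used here.

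Each table's 6 libraries were tested with edgeR 4.0.16 (robust quasi-likelihood, TMM factors, filterByExpr defaults, R 4.3.3) and no covariate. Benjamini-Hochberg adjustment ran over all tested genes, with a threshold of 0.05. CPM values are TMM-scaled, and the SE was taken as the log2 fold change divided by the root of F. GC offsets were a natural spline (5 df) of each library's log2 CPM, less the gene mean, on the GC of the longest annotated transcript. The other settings were RLE and upper-quartile factors, no filter, a stricter filter (50 counts in 3 libraries), no ribosomal RNA loci, DESeq2 1.42.0, limma 3.58.1 on the deposited log2 values, each library left out, and the experiment number as a block. Offsets on coding GC, the subset of members with unique sequence and that without overlaps were chosen after seeing the data. The sample descriptions number the experiments 1 to 3 in each group, and on that basis same-numbered libraries were taken as pairs, although no label says that they were run together and the correlations were low: their deviations from the group means correlated at 0.0276, 0.119 and 0.0482 for RANKL and ENR control (9999 genes) and at 0.0223, 0.0328 and 0.06 for RANKL+CSRM617 and RANKL II (9645 genes). On simulated counts, the edgeR script recovered 94% of genes changed by 1 log2 unit and 52% of those changed by 0.5 in the RANKL comparison (13360 genes), and 100% and 88% in the CSRM617 comparison (13993 genes).

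Members and lists were chosen with earlier results of these data known. Named members are the 3 with the highest mean CPM and the largest rise and fall of each class, up to 12 called in opposite directions, and from each list up to 4 with the smallest p in each comparison, with Slbp, Npat, Mki67, Pcna, H3f3b and H2afz always; further genes are named only as members of a count, chosen after their values were seen, as are Hist1h1a, Hist1h2bp, Hist1h3i and Cdt1 where outside the rule. Some genes that the rule would name are not reported here.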

Additional observations from a re-analysis of the deposited data

How the results depend on the processing

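Directions of the named genes and their side of the threshold held in most settings, and the GC offsets were the settings that changed them most. With RANKL, 18 members fell with coding GC offsets against 51 without, where 26.8% and 28.0% of all genes fell. Of the 24 tested members with at least 50% unique sequence 20 fell without offsets and 8 with coding GC offsets. With CSRM617, 27 rose and 13 fell with transcript GC offsets, 26 and 13 with GC offsets and the experiment block, and 13 and 22 with coding GC offsets. Without offsets 15 of the 24 with unique sequence rose and 4 fell, and 25 of the 37 without overlap rose and 4 fell. With coding GC offsets 5 of the 24 rose and 14 fell, and 7 of the 37 rose and 17 fell. Among all genes 35.2% rose and 36.2% fell without offsets, and 29.9% and 33.6% with coding GC offsets. DESeq2 gave 37 higher members in place of 41 and 3 lower in place of 5, with Hist1h4c and Hist3h2a no longer called. The stricter filter also gave 3 lower members, since Hist3h2a and Hist2h2be did not reach 50 counts in 3 libraries. Leaving out 1 library gave 50 to 52 lower and 0 to 1 higher members with RANKL, the 1 being Hist2h2be without ENR control replicate 2, and 35 to 41 higher and 4 to 5 lower with CSRM617. The block changed 2 calls among all members, Hist1h2bh (RANKL, now lower) and Hist1h2be (CSRM617, no longer called), giving 52 lower with RANKL and 40 higher and 5 lower with CSRM617.

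Signs turned only with GC offsets. In RANKL against ENR control, coding GC turned 4 of 55 tested members and transcript GC 0: coding GC gave Hist2h2ac 0.14, Hist1h2bc 0.13, Hist1h2bh 0.15 and Hist1h4b 0.05, and all GC offsets gave Npat -0.21. In RANKL+CSRM617 against RANKL II, transcript GC turned 12 of the 55 and coding GC 22. Among the named genes, values with transcript GC offsets, with the block added and with coding GC were -0.18, -0.16 and -0.28 for Hist1h2ab, -0.23, -0.23 and -0.36 for Hist1h2bb, -0.37, -0.37 and -0.61 for Hist1h4h, 0.08, 0.09 and 0.08 for Npat, 0.16, 0.15 and 0.16 for Cstf2, 0.65, 0.64 and 0.65 for Atrx, and in all 3 0.06 for H3f3b, 0.14 for Xrn1 and -0.10 for Cdt1. Hist1h3e stood at 0.00 with the block added and at -0.47 with coding GC. Coding GC also gave negative values for Hist1h1c (-0.17), Hist1h2bc (-0.20), Hist1h2bg (-0.46), Hist1h3f (-0.10) and Hist1h4d (-0.49). The cause of this dependence on GC was not tested. Low counts limit Hist3h2a, Hist2h2be, Hist1h2bp and the 14 untested members.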
